A study of Mus musculus with 16 samples.

Results

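The 6 genes of CD28-B7 family costimulation, namely the ligand genes Cd80, Cd86 and Icosl and the receptor genes Cd28, Ctla4 and Icos, were followed through immune cells of B16 melanomas by single-cell RNA sequencing. The 6 were taken by symbol from the 32285 genes of the count matrices, and each had 1 entry in all 8 libraries. The ligands were read in monocytes, macrophages, neutrophils, dendritic cells and B cells, and the receptors in T cells. C57BL/6J mice carried a subcutaneous tumour grown from 1000000 Bro4.1 B16 cells, which were either control or B2m-null, and received rat IgG2a isotype antibody or an anti-CD40 agonist antibody (100 µg into the peritoneum) on days 6, 9 and 12. Tumours were taken on day 14. CD45+ cells were enriched on magnetic columns, each mouse was marked with a hashtag antibody, and the mice of a pool were run together on a droplet lane.

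The 4 groups were control tumour with isotype (5 mice in 2 pools), control tumour with anti-CD40 (2 mice of 1 pool, run on 2 lanes that the labels call technical replicates), B2m-null tumour with isotype (5 mice in 2 pools) and B2m-null tumour with anti-CD40 (4 mice in 2 pools). B2m was lost in the implanted tumour cells according to the series' design text, whereas the sample labels write WT or B2M KO as a genotype beside the strain C57BL/6. The age of the mice is not in the labels used here. Mice were counted from the hashtags in the files: the labels list 3 hashtags for every lane, whereas 6 of the 8 files hold 2, so each n rests on the files. Because the control tumours under anti-CD40 come from 1 pool, pool and group cannot be told apart there.

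CD80 and CD86 on antigen-presenting cells are the shared ligands of CD28, which gives T cells the second signal they need beside the T cell receptor, and of CTLA-4, which binds the same ligands more tightly and strips them from the presenting cell. ICOSL is the ligand of ICOS, a relative of CD28 that appears on T cells after activation. CD40 is a receptor on dendritic cells, macrophages and B cells whose engagement by CD40 ligand on helper T cells is a textbook inducer of CD80 and CD86. Regulatory T cells carry CTLA-4 and ICOS at high levels.

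On mm10, Cd86 (ENSMUSG00000022901) lies at chr16:36603869-36666081 on the minus strand and Cd80 (ENSMUSG00000075122) at chr16:38455561-38496335 on the plus strand of the same chromosome, while Icosl (ENSMUSG00000000732) lies at chr10:78069302-78083913 on the plus strand. The 3 receptor genes lie side by side on the plus strand of chromosome 1, with Cd28 (ENSMUSG00000026012) at chr1:60716800-60773359, Ctla4 (ENSMUSG00000026011) at chr1:60887000-60915832 and Icos (ENSMUSG00000026009) at chr1:60977927-61000320. Ctla4 overlaps the pseudogene Rpl18-ps1 and Icos overlaps the gene model Gm37039, each on the same strand, so reads of such pairs can be hard to assign.

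Promoter sequence from RefSeq (GRCm38.p6) was matched for 3 of the 6 genes and is shown to give the regulatory sequence beside a member called in macrophages (Icosl), a member called in CD8 T cells (Ctla4) and a ligand with no call (Cd80). Each run is the 250 bases before the start that RefSeq's table uses for the gene, 5′ to 3′ on the plus strand. These starts differ from those of the gene models above, so the Cd80 and Ctla4 windows lie inside the gene models and the Icosl window runs across the gene model's start. The windows are Cd80 at chr16:38458683-38458932, Icosl at chr10:78069118-78069367 and Ctla4 at chr1:60908775-60909024. Capitals mark matches of the motifs searched on both strands.
Cd80: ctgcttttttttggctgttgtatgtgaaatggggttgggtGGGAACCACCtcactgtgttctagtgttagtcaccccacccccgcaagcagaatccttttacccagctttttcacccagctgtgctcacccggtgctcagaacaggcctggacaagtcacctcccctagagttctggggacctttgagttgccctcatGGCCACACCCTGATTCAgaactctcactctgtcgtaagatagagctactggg
Icosl: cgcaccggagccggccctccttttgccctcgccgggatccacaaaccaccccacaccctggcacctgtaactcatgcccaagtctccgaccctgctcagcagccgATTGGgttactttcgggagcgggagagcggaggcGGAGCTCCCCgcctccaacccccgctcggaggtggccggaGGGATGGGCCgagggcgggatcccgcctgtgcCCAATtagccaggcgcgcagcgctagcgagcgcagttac
Ctla4: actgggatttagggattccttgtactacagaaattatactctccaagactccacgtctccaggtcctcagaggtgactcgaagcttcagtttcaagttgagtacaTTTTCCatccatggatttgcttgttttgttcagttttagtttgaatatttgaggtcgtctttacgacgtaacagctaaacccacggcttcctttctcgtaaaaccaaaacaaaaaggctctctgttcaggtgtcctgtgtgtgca
The motifs, with the share of 32851 promoters of this length that hold each, were AP1 (TGANTCA, 6.75%), a kappaB motif of GGG and CC set 5 bases apart (45.8%), NFAT (GGAAAA, 20.4%) and the CCAAT box (33.8%). The GAS motif (TTCNNNGAA, 7.02%), an ISRE of GAAA repeated 2 bases apart (2.98%), the TATAAA box (12.4%) and a forkhead motif (TGTTTAC, 3.17%) were also searched and had no match in these 3 windows. Cd80 held 2 kappaB matches and 1 AP1 match, Icosl held 2 kappaB and 2 CCAAT matches in a window of 68.8% GC, and Ctla4 held 1 NFAT match. A match describes these letters and is no measured site.

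The libraries held 116552 barcodes and between 45985739 and 99264875 UMIs (counted RNA molecules) per lane, of which 89406 barcodes passed the filters and 71612 could be given to 1 of 16 mice. One lane stood apart: in the first pool of B2m-null tumours under isotype, 21.2% of barcodes were assigned to a mouse, against 63.1% to 88.4% in the other lanes, so its 3 mice rest on few cells. In melanoma cells carried along, B2m read 1059 to 2127 CPM (UMIs per 1000000) in the lanes of control tumours and 191 to 445 in those of B2m-null tumours. No pair of lanes shared more than 92 barcodes (0.623% of the smaller lane). Cells were clustered without the 6 genes, and each class below is a group of clusters that resembles the named cell type by its markers. The 8 clusters of mixed or unclear identity were left out, and gamma-delta T cells were not resolved. One of them, of monocytes or macrophages, held 1.41% of control isotype, 1.9601% of control anti-CD40, 0.309% of B2m-null isotype and 13.8% of B2m-null anti-CD40 cells. Cd86 in it read 163 ± 31.0 CPM (SD, n = 5), 95.6 ± 13.3 (SD, n = 2), 169.9 (1 mouse) and 132 ± 35.6 (SD, n = 4) in these groups. The classes used held between 67.3% and 72.6% of each member's UMIs in immune cells.

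Values below are UMIs per 1000000 UMIs of a class in a mouse (CPM), for mice with at least 20 cells of that class, and log2 changes come from edgeR's quasi-likelihood test over all genes of a class with Benjamini-Hochberg adjustment. CPM is not scaled by gene length, so levels are compared between classes for 1 gene and not between genes. Over 5 comparisons, 104 tests of a member in a class were possible, and 18 had an adjusted p under 0.05.

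Cd86, the ligand whose UMIs were most numerous among the 3 (24986, against 7392 for Cd80 and 1754 for Icosl), was the ligand that moved with both treatment and tumour type. Its level fell under anti-CD40 in monocytes and macrophages of control tumours and rose under anti-CD40 in macrophages of B2m-null tumours. Under isotype it stood lower in B2m-null than in control tumours. In macrophages of control tumours, the 5 isotype mice gave 87.7, 93.7 and 105 CPM in the first pool and 88.1 and 88.7 CPM in the second. The 2 anti-CD40 mice gave 36.4 and 50.01 CPM. In macrophages of B2m-null tumours, the isotype mice gave 46.0, 46.4 and 43.5 CPM in the first pool and 78.0 and 58.2 CPM in the second. The anti-CD40 mice there gave 66.9 and 72.4 CPM in the first pool and 79.2 and 85.2 CPM in the second. All 5 control isotype mice stood above all other mice, the 2 anti-CD40 mice of control tumours lay among the lowest, and in B2m-null tumours 1 isotype mouse lay within the anti-CD40 range.

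**Figure D1:**
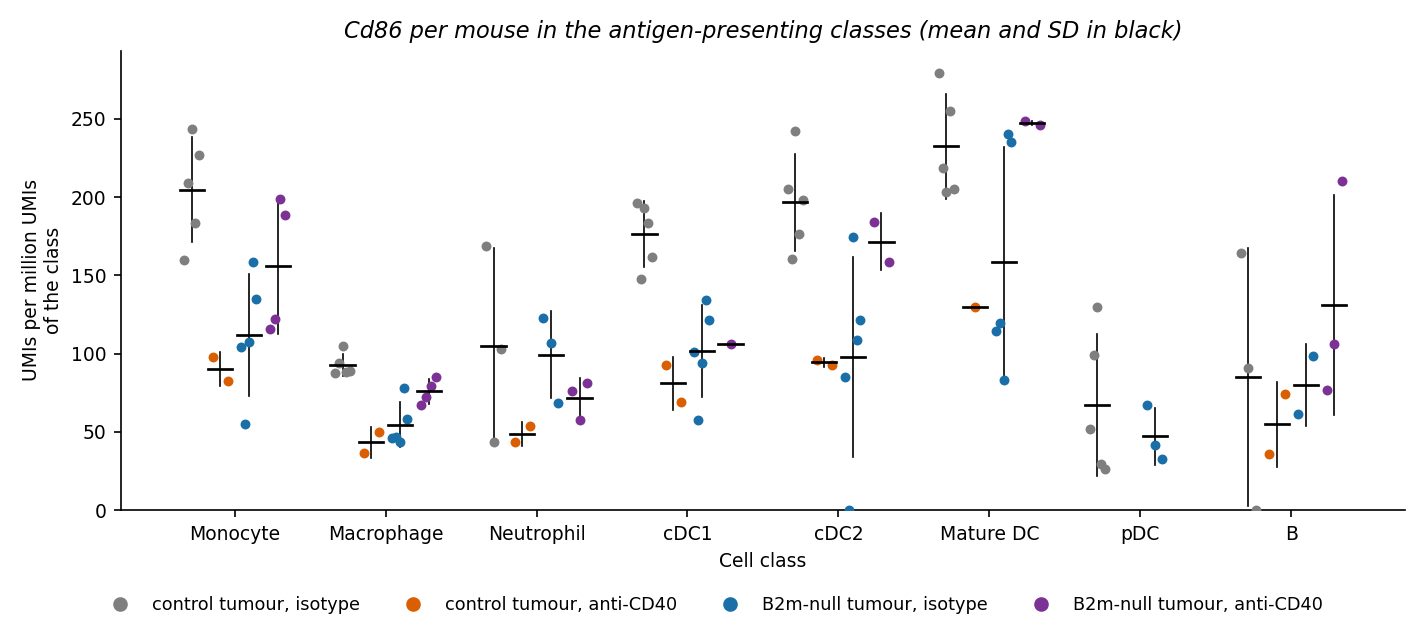
Cd86 per mouse in each antigen-presenting class, in UMIs per 1000000 UMIs of the class on a linear axis from 0. Each point is a mouse with at least 20 cells, coloured by group, and black bars give the mean and SD. In macrophages the control isotype mice lie at 87.7 to 105 CPM, above the anti-CD40 mice of control tumours at 36.4 and 50.01 CPM.

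The macrophage means were 92.6 ± 7.28 (SD, n = 5 mice) for control isotype, 43.2 ± 9.66 (n = 2) for control anti-CD40, 54.4 ± 14.4 (n = 5) for B2m-null isotype and 75.9 ± 7.95 (n = 4) for B2m-null anti-CD40, in CPM of Cd86. Anti-CD40 lowered Cd86 1.93-fold in control tumours (log2 change −0.95, SE 0.20, adjusted p = 0.0026) and raised it 1.54-fold in B2m-null tumours (0.62, SE 0.16, adjusted p = 0.00847). Under isotype, Cd86 was 1.67-fold lower in B2m-null tumours (−0.74, SE 0.15, adjusted p = 0.00784), and under anti-CD40 it was 1.77-fold higher there (0.83, SE 0.20, adjusted p = 0.0184). The difference between the CD40 effects in the 2 tumour types was itself 1.57 on the log2 scale (SE 0.26, 95% interval 1.07 to 2.07, adjusted p = 0.00162). That difference kept an adjusted p under 0.05 in each alternative run, whereas each single comparison lost it in 1 to 3 of 22 alternatives. Without the first mouse of the control anti-CD40 pool the fall in control tumours was −0.71 (adjusted p = 0.0847). Without the first B2m-null isotype pool the rise was 0.35 (adjusted p = 0.142).

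The macrophage class is a set of 6 clusters whose weights differed between groups. The cluster led by H2-M2 and Gpnmb held a mean 50.3% of the macrophages of control anti-CD40 mice and 2.61% of those of control isotype mice. The cluster led by Rsad2 and Ifit2, which are interferon-stimulated genes, held 1.23% and 16.1%. The cluster led by Stab1 and Mrc1 held 3.65% and 26.7%. Cd86 read lower under anti-CD40 within each of the 6 clusters of control tumours, for example 43.4 against 90.5 CPM in the Mmp12 and Spp1 cluster, 51.5 against 84.0 CPM in the Stab1 cluster and 107 against 133 CPM in the interferon-stimulated cluster. In B2m-null tumours it read higher under anti-CD40 in the Mmp12, Stab1 and Lyve1 clusters (69.9 against 53.0, 68.8 against 50.3 and 90.3 against 57.9 CPM). It read lower in the interferon-stimulated cluster (122 against 147 CPM) and in the C1qa cluster (60.8 against 88.8 CPM, the latter from 2 mice). These cluster values are descriptions and carry no test.

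Markers of other cells moved with these groups as well, and their part in the Cd86 values was not tested. Summed CD8 T markers (6 of 6 with a UMI) ranged over 10.4 to 23.6 CPM in the macrophages of control isotype mice, 37.1 to 51.6 under anti-CD40 there, 7.55 to 22.6 in B2m-null isotype mice and 19.1 to 38.1 in B2m-null anti-CD40 mice. Summed monocyte markers (7 of 7) ranged over 932 to 1886, 411 to 552, 1114 to 2321 and 602 to 1174 CPM in the same order. Mature dendritic cell markers (7 of 7) ranged over 11.3 to 24.7, 4.29 to 7.83, 10.2 to 29.2 and 10.6 to 16.4 CPM, with no overlap between the control groups, where they were lower under anti-CD40.

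Monocytes, the circulating precursors that enter tumours, carried more Cd86 and showed a like order. Control isotype mice gave 159.8, 209 and 244 CPM in the first pool and 184 and 227 CPM in the second. Control anti-CD40 mice gave 98.0 and 82.6 CPM. B2m-null isotype mice gave 104, 54.8 and 107 CPM in the first pool and 159 and 135 CPM in the second. Anti-CD40 mice there gave 115 and 122 CPM in the first pool and 199 and 188 CPM in the second. The control isotype and control anti-CD40 mice did not overlap, while in B2m-null tumours the second pool stood above the first under both antibodies. Cd86 in monocytes was 2.29-fold lower under anti-CD40 in control tumours (−1.19, SE 0.26, adjusted p = 0.00435), 1.59-fold lower in B2m-null than control tumours under isotype (−0.67, SE 0.17, adjusted p = 0.0342) and 2.03-fold higher under anti-CD40 (1.02, SE 0.27, adjusted p = 0.0255). The change under anti-CD40 in B2m-null monocytes, 0.50 (SE 0.20, 95% interval 0.12 to 0.89), did not pass (adjusted p = 0.0897). It passed without the second B2m-null isotype pool (0.97, adjusted p = 0.017) or the first B2m-null anti-CD40 pool (0.71, adjusted p = 0.0177), and was −0.09 (adjusted p = 0.937) without the second anti-CD40 pool. The CD40 effects differed by 1.69 (SE 0.32, adjusted p = 0.00185), a value of 1.11 with adjusted p = 0.111 without the second B2m-null anti-CD40 pool. The lower level under isotype lost its call in 8 of 22 alternatives, among them those without either control isotype pool or without the first B2m-null isotype pool (−0.68, −0.68 and −0.48, adjusted p = 0.287, 0.0681 and 0.278). The higher level under anti-CD40 lost it in 7 of 22, among them those without the second B2m-null anti-CD40 pool (0.43, adjusted p = 0.646) and without either control anti-CD40 mouse (1.10 and 0.85, adjusted p = 0.0947 and 0.360). The fall in control tumours was −1.06 (adjusted p = 0.272) without the second mouse of its anti-CD40 pool. Summed macrophage markers in the monocyte class (9 of 9 with a UMI) were 4250 to 6418 CPM in control isotype mice, 3565 to 3578 under anti-CD40, 3537 to 5407 in B2m-null isotype mice and 1834 to 3282 under anti-CD40. Summed cDC2 markers there were 113 to 267, 159 to 199, 223 to 421 and 40.7 to 138.5 CPM in the same order, so the B2m-null anti-CD40 mice lay below both the B2m-null isotype and the control anti-CD40 mice. The part of these markers was not tested.

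In cDC2, the Cd86 changes had the same signs on fewer cells. In these cells, which present antigen mainly to CD4 T cells, control isotype mice gave Cd86 at 205, 160.4 and 242 CPM in the first pool and 177 and 198 CPM in the second. Control anti-CD40 mice gave 96.1 and 92.4 CPM. B2m-null isotype mice gave 85.3, 0 and 174 CPM in the first pool and 109 and 122 CPM in the second. The 2 anti-CD40 mice gave 184 and 159 CPM. The mouse at 0 had 20 such cells, in which a count of 0 allows a level of up to 62.7 CPM (3 UMIs, counting error only). Cd86 in cDC2 was 1.72-fold lower in B2m-null tumours under isotype (−0.78, SE 0.20, adjusted p = 0.0336), and the CD40 effects differed by 1.75 (SE 0.48, adjusted p = 0.0484), a call that was lost in 12 of 18 alternatives. The lower level under isotype lost its call in 6 of 22, among them those without either control isotype pool or without the second B2m-null isotype pool (adjusted p = 0.283, 0.0784 and 0.188). The CD40 changes themselves, −1.02 (SE 0.38, adjusted p = 0.187) in control and 0.73 (SE 0.29, adjusted p = 0.142) in B2m-null tumours, did not pass. Summed mature dendritic cell markers in cDC2 were 107 to 229 CPM in control isotype mice and 0 to 55.5 CPM under anti-CD40, 49.8 to 423 CPM in B2m-null isotype mice and 31.7 to 163 CPM under anti-CD40. Summed CD8 T markers there were 39.6 to 133, 120 to 259, 40.2 to 143 and 3.96 to 34.3 CPM in the same order, with no overlap between the B2m-null groups. The part of these markers was not tested.

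In cDC1, which cross-present antigen to CD8 T cells, Cd86 stood at 196, 147, 193, 183 and 162 CPM in the control isotype mice and at 92.7 and 69.1 CPM in the control anti-CD40 mice. In B2m-null tumours the isotype mice gave 101, 57.2, 93.7, 134 and 121 CPM, against 106 CPM in the 1 B2m-null anti-CD40 mouse with enough cells. The control isotype mice stood above all others. In edgeR's test, neither the CD40 change in control tumours (−1.14, SE 0.29, adjusted p = 0.0549) nor the lower level in B2m-null tumours under isotype (−0.67, SE 0.16, adjusted p = 0.0571) passed, and each passed in 5 alternatives. Between the control groups, 3 of the 6 lists of other cells' markers in cDC1 did not overlap: summed CD8 T markers were 233 to 541 CPM under isotype and 572 to 665 under anti-CD40, monocyte markers 1195 to 2011 and 1028 to 1131, and cDC2 markers 251 to 323 and 182 to 216, and their part was not tested. In mature dendritic cells, the Ccr7-bearing cells that migrate to lymph nodes, Cd86 was 279, 219 and 203 CPM in the first and 255 and 205 CPM in the second control isotype pool, and 129.9 CPM in the 1 control anti-CD40 mouse. It was 115, 119 and 83.4 CPM in the first and 240.0 and 235 CPM in the second B2m-null isotype pool, and 248 and 246 CPM in 2 B2m-null anti-CD40 mice. The pools of the B2m-null isotype group did not overlap, and the change under anti-CD40 there (0.39, SE 0.37, adjusted p = 0.745) did not pass. It was −0.05 (adjusted p = 0.963) without the first isotype pool and passed without the second (1.27, adjusted p = 0.0273). The difference of B2m-null from control tumours under isotype, −0.39 (adjusted p = 0.644), likewise was 0.07 (adjusted p = 0.944) without the first B2m-null pool and −1.19 (adjusted p = 0.00836) without the second.

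Neutrophils, plasmacytoid dendritic cells and B cells gave Cd86 from few UMIs. Neutrophils read 43.4 to 169 CPM in 3 control isotype mice, and 43.2 and 53.8 CPM under anti-CD40. They read 68.7 to 122 CPM in 3 B2m-null isotype mice and 57.8 to 81.4 CPM in 3 anti-CD40 mice, with 0 of 5 edgeR tests called (0 at an unadjusted p under 0.05, and 0 by DESeq2 or limma-voom). B cells, where CD40 ligation is a classical stimulus, read from 0 to 164 CPM in control isotype mice, 35.6 and 74.1 CPM under anti-CD40, 61.4 and 98.5 CPM in B2m-null isotype mice and 76.5 to 211 CPM under anti-CD40 (log2 changes −0.43, adjusted p = 0.87, and 0.80, adjusted p = 0.414). In B cells 0 of 5 Cd86 tests passed with edgeR, 1 at an unadjusted p under 0.05, 0 with DESeq2 and 1 with limma-voom. Each Cd86 value in B cells rested on at most 29 UMIs. Plasmacytoid cells read 26.2 to 129.6 CPM in control and 32.6 to 67.4 CPM in B2m-null isotype mice (−0.84, SE 0.44, adjusted p = 0.593).

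Icosl, the ICOS ligand, was sparse in macrophages and moved under anti-CD40 the same way in both tumour types. In control tumours the isotype mice gave 1.97, 4.19 and 4.64 CPM in the first pool and 3.45 and 4.56 CPM in the second, against 1.478 and 1.28 CPM. In B2m-null tumours the isotype mice gave 3.32, 0 and 3.34 CPM in the first pool and 5.64 and 4.34 CPM in the second. The anti-CD40 mice there gave 0.853 and 0.754 CPM in the first pool and 1.89 and 1.63 CPM in the second. The anti-CD40 mice lay below all isotype mice but the one at 0, where a count of 0 allows up to 5.16 CPM. Icosl fell 2.59-fold in control tumours (−1.37, SE 0.38, adjusted p = 0.0146) and 2.49-fold in B2m-null tumours (−1.32, SE 0.33, adjusted p = 0.00686). The 2 effects differed by 0.06 (95% interval −0.92 to 1.03, adjusted p = 0.972), an interval that leaves room for a large difference either way. The per-mouse values rested on 0 to 99 UMIs, and most isotype macrophage mice lay above the group means of Icosl in CD8 T cells (0.58 to 2.66 CPM) and melanoma cells (0.89 to 2.77 CPM) and within those of natural killer cells (2.495 to 8.84 CPM). The anti-CD40 macrophage mice, at 0.754 to 1.89 CPM, lay within the range of CD8 T cells and within or below that of melanoma cells. The falls thus ended at the level read in those cells. Within the macrophage clusters, the mean of control mice was lower under anti-CD40 in 4 of 6 and higher in the Stab1 cluster (5.65 against 3.35 CPM) and the interferon-stimulated cluster (4.22 against 3.61 CPM), each within the spread between mice. The H2-M2 cluster, which made up 50.3% of control anti-CD40 and 2.61% of control isotype macrophages, read 0.729 and 1.26 CPM. In B2m-null tumours the mean was lower under anti-CD40 in each of the 5 clusters with values in both groups, and how far the mix of clusters carries the class values was not tested. The call in control tumours was lost without either anti-CD40 mouse (adjusted p up to 0.183), and that in B2m-null tumours without the second isotype pool (−0.73, adjusted p = 0.285).

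Outside macrophages, 0 of 9 Icosl tests passed with edgeR (1 at an unadjusted p under 0.05, 0 with DESeq2 or limma-voom). Mature dendritic cells read 23.1 to 36.1 CPM in control isotype mice, 24.99 CPM in 1 anti-CD40 mouse, 21.7 to 67.6 CPM in B2m-null isotype mice and 37.3 and 42.5 CPM in 2 anti-CD40 mice. The difference of B2m-null from control tumours under isotype was 0.71 (SE 0.23, adjusted p = 0.305). The cDC2 means were 28.1 ± 8.20 (n = 5), 30.5 ± 9.15 (n = 2), 38.4 ± 18.0 (n = 5) and 31.5 ± 22.1 CPM (n = 2) over the 4 groups in the order given at the start, and the CD40 changes were 0.18 (95% interval −0.98 to 1.35) and −0.11 (−1.02 to 0.80).

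**Figure D2:**
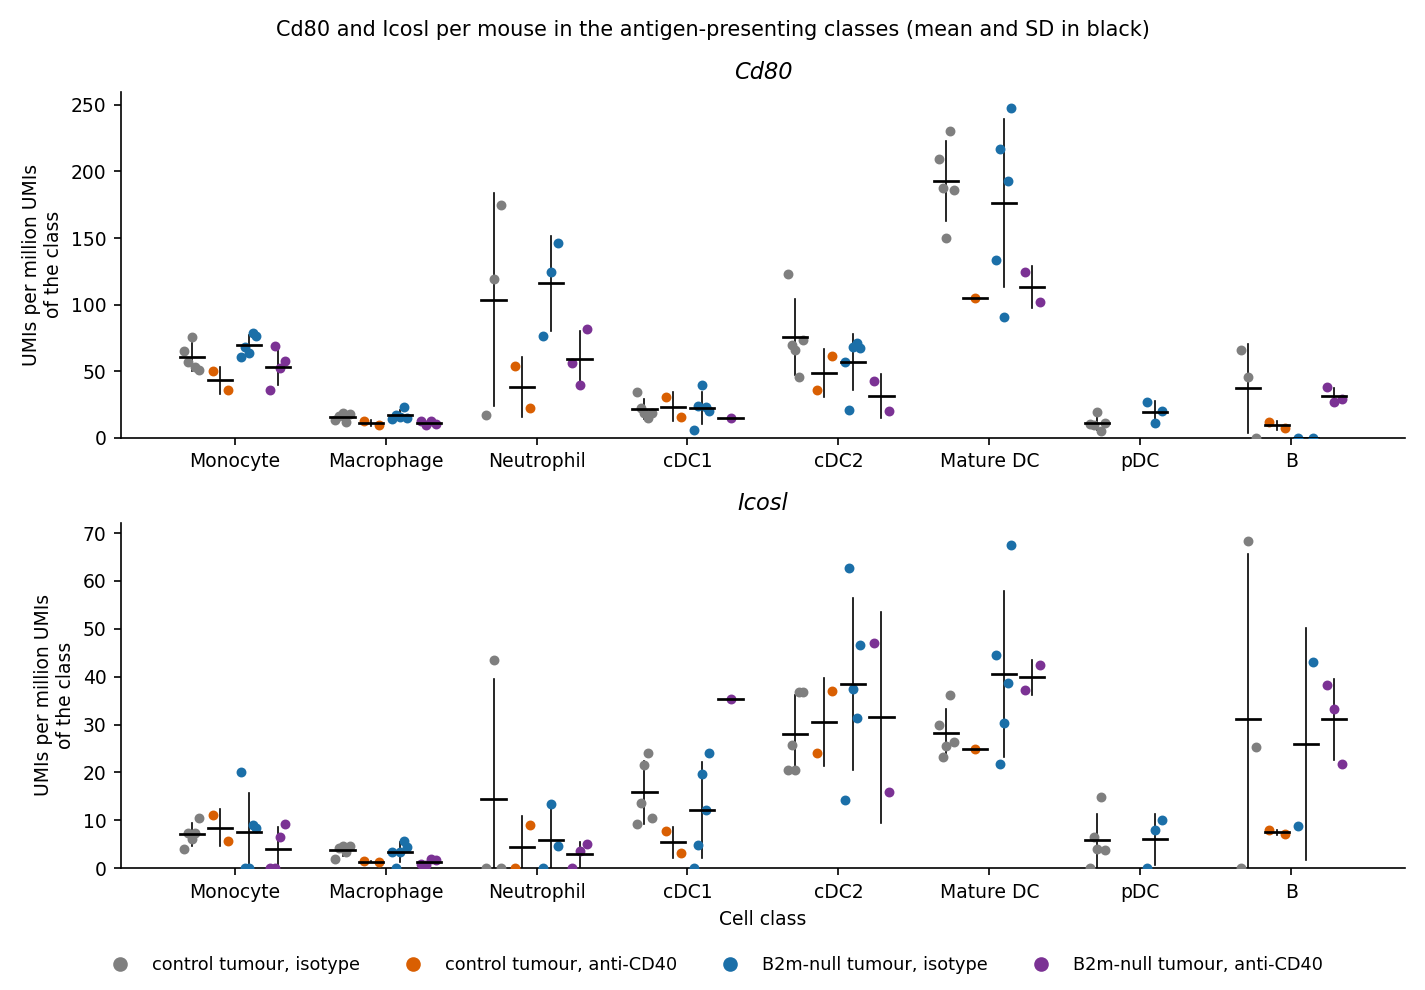
Cd80 (upper panel) and Icosl (lower panel) per mouse in each antigen-presenting class, in UMIs per 1000000 UMIs of the class on linear axes from 0, with the mean and SD in black. Cd80 is highest in mature dendritic cells, at 91.0 to 247 CPM over 13 mice, and Icosl in macrophages lies at 0 to 5.64 CPM.

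Cd80, the second ligand of CD28 and CTLA-4, had 0 calls in 24 edgeR tests, with 5 at an unadjusted p under 0.05 and 0 by DESeq2 or limma-voom. In macrophages the control isotype mice gave 13.3, 16.3, 18.3, 12.0 and 17.9 CPM, and the control anti-CD40 mice 12.6 and 9.60 CPM. The B2m-null isotype mice gave 13.9, 17.2, 15.9, 23.4 and 14.5 CPM and the B2m-null anti-CD40 mice 12.8, 9.80, 12.3 and 10.0 CPM. The anti-CD40 mice lay at the low end in both tumour types, overlapping the isotype mice in control tumours and not in B2m-null tumours. The log2 changes under anti-CD40 were −0.40 (95% interval −0.79 to −0.01, adjusted p = 0.167) and −0.43 (−0.78 to −0.08, adjusted p = 0.0776). The change in B2m-null macrophages passed under the stricter cell filter alone (lowest adjusted p = 0.0162).

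In mature dendritic cells Cd80 was 209, 188, 150, 230 and 186 CPM in control isotype mice, and 105 CPM in the 1 control anti-CD40 mouse. It was 134, 217, 91.0, 193 and 247 CPM in B2m-null isotype mice and 124 and 102 CPM in the B2m-null anti-CD40 mice. The anti-CD40 mice lay at the low end, with 1 B2m-null isotype mouse lower, and the change in B2m-null tumours was −0.79 (95% interval −1.57 to −0.01, adjusted p = 0.487). Between the B2m-null groups, summed macrophage markers in these cells did not overlap (974 to 3900 CPM under isotype, 683 to 730 under anti-CD40). Nor did B cell markers (45.5 to 161 and 12.4 to 34.0 CPM), while CD8 T, monocyte and cDC2 markers overlapped. CD8 T markers were 1294 CPM in the control anti-CD40 mouse, above the control isotype mice (449 to 1042 CPM). Monocyte, cDC2 and B cell markers there lay below those mice. The part of these markers was not tested. Neutrophils gave Cd80 at 16.9, 119 and 175 CPM in control isotype mice, and 54.0 and 22.4 CPM under anti-CD40. They gave 76.5, 125 and 147 CPM in B2m-null isotype mice and 56.3, 39.7 and 81.4 CPM under anti-CD40 in B2m-null tumours. The changes were −1.65 (95% interval −2.99 to −0.32, adjusted p = 0.30) and −0.95 (−1.84 to −0.05, adjusted p = 0.456). Without the second control isotype pool the first turned to 1.18 (adjusted p = 0.845), and without the second B2m-null isotype pool the second was −0.19 (adjusted p = 0.953). Cd80 in monocytes had means of 60.5 ± 10.3, 43.0 ± 10.48, 69.4 ± 7.97 and 53.5 ± 13.8 CPM (n = 5, 2, 5 and 4), with changes of −0.52 (adjusted p = 0.237) and −0.25 (adjusted p = 0.404). The first passed when cells were gated by transcripts (−1.11, adjusted p = 0.00194) and the second at clustering resolution 2 (−0.62, adjusted p = 0.0133). With transcript gates Cd80 in monocytes also passed as higher in B2m-null than in control tumours under anti-CD40 (0.81, adjusted p = 0.0264). Of the 10 Cd80 changes under anti-CD40 that could be tested, 9 were below 0 (among them that in control neutrophils, which turned above 0 without 1 pool). The remaining 1 (cDC1 of control tumours) was 0.01 with a 95% interval of −1.06 to 1.09. Of the 10, 0 passed and 4 had an unadjusted p under 0.05 in edgeR's test, fewer than the printed intervals that exclude 0, which are narrower than the test.

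The ligands were ordered by their mean over all mice with enough cells, which differ between classes. Cd80 was highest in mature dendritic cells (mean 167 CPM), then neutrophils (83.0), monocytes (59.3), cDC2 (58.8), B cells (22.4), cDC1 (21.7), macrophages (14.4) and plasmacytoid cells (14.3). Of these neighbours only mature dendritic cells over neutrophils and cDC2 over B cells differed beyond their spread, each in 8 of 8 mice (exact sign-flip permutation test, two-sided, adjusted p = 0.0422, the smallest p of 8 mice being 0.00781 before adjustment). Cd80 in B cells rested on 22 UMIs in all. The 2 B2m-null isotype mice read 0 there, which allows up to 26.3 and 18.5 CPM. A control isotype mouse of the second pool also read 0, which allows up to 76.0 CPM. Its pool read 45.6 and 73.4 CPM in cDC2, so the direction in that mouse is not settled. Cd86 ran from mature dendritic cells (198 CPM) over monocytes (149), cDC2 (143), cDC1 (127), B cells (91.8), neutrophils (84.1) and macrophages (70.3) to plasmacytoid cells (59.7), and only the first step differed (10 of 13 mice, exact permutation test, adjusted p = 0.0461). Icosl ran from mature dendritic cells (34.5 CPM) over cDC2 (32.6), B cells (25.4), cDC1 (14.3), neutrophils (7.18), monocytes (6.58) and plasmacytoid cells (5.90) to macrophages (2.71), with no step past the threshold. Compared within mice, some steps ran the other way, such as Icosl in neutrophils over monocytes (3 of 11 mice, mean log2 difference −0.81) and Cd80 in B cells over cDC1 (3 of 8 mice, −1.43).

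Counted over the ligands, 3 of 14 tests passed for anti-CD40 in control tumours, all 3 lower (Cd86 in monocytes and macrophages, Icosl in macrophages). Of all genes tested in that comparison, in either direction, 5.11% passed in monocytes, 21.8% in macrophages, 0.812% in neutrophils, 1.40% in cDC1, 2.72% in cDC2 and 1.16% in B cells, so a call in macrophages was not rare. Lower calls alone made up 1.88% of genes in monocytes and 10.1% in macrophages. In B2m-null tumours 2 of 14 passed under anti-CD40 (Cd86 higher and Icosl lower in macrophages), against 13.3% of genes in monocytes, 28.2% in macrophages, 0.382% in neutrophils, 6.69% in cDC2, 0.768% in mature dendritic cells and 3.23% in B cells. In macrophages 14.3% were higher and 13.9% lower. For B2m-null against control tumours, 3 of 18 passed under isotype, all Cd86 and all lower (background 1.99% in monocytes, 7.06% in macrophages, 3.31% in cDC2, 0.729% in cDC1, 0.0747% in mature dendritic cells, 0.125% in plasmacytoid cells, 0.133% in B cells and 0.00% in neutrophils). Lower calls alone were 1.46% in monocytes, 4.21% in macrophages and 2.42% in cDC2. Under anti-CD40, 2 of 11 passed, both Cd86 and both higher (6.74% in monocytes, 9.55% in macrophages, 0.845% in cDC2, 0.133% in B cells and 0.00% in neutrophils). Higher calls alone were 4.07% in monocytes and 4.26% in macrophages. The difference of the CD40 effects passed in 3 of 11, all Cd86 (7.90%, 12.7%, 3.03%, 0.00% and 0.0239% in monocytes, macrophages, cDC2, B cells and neutrophils). Higher calls alone were 5.14%, 6.35% and 2.06% in the first 3 of these.

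**Figure D3:**
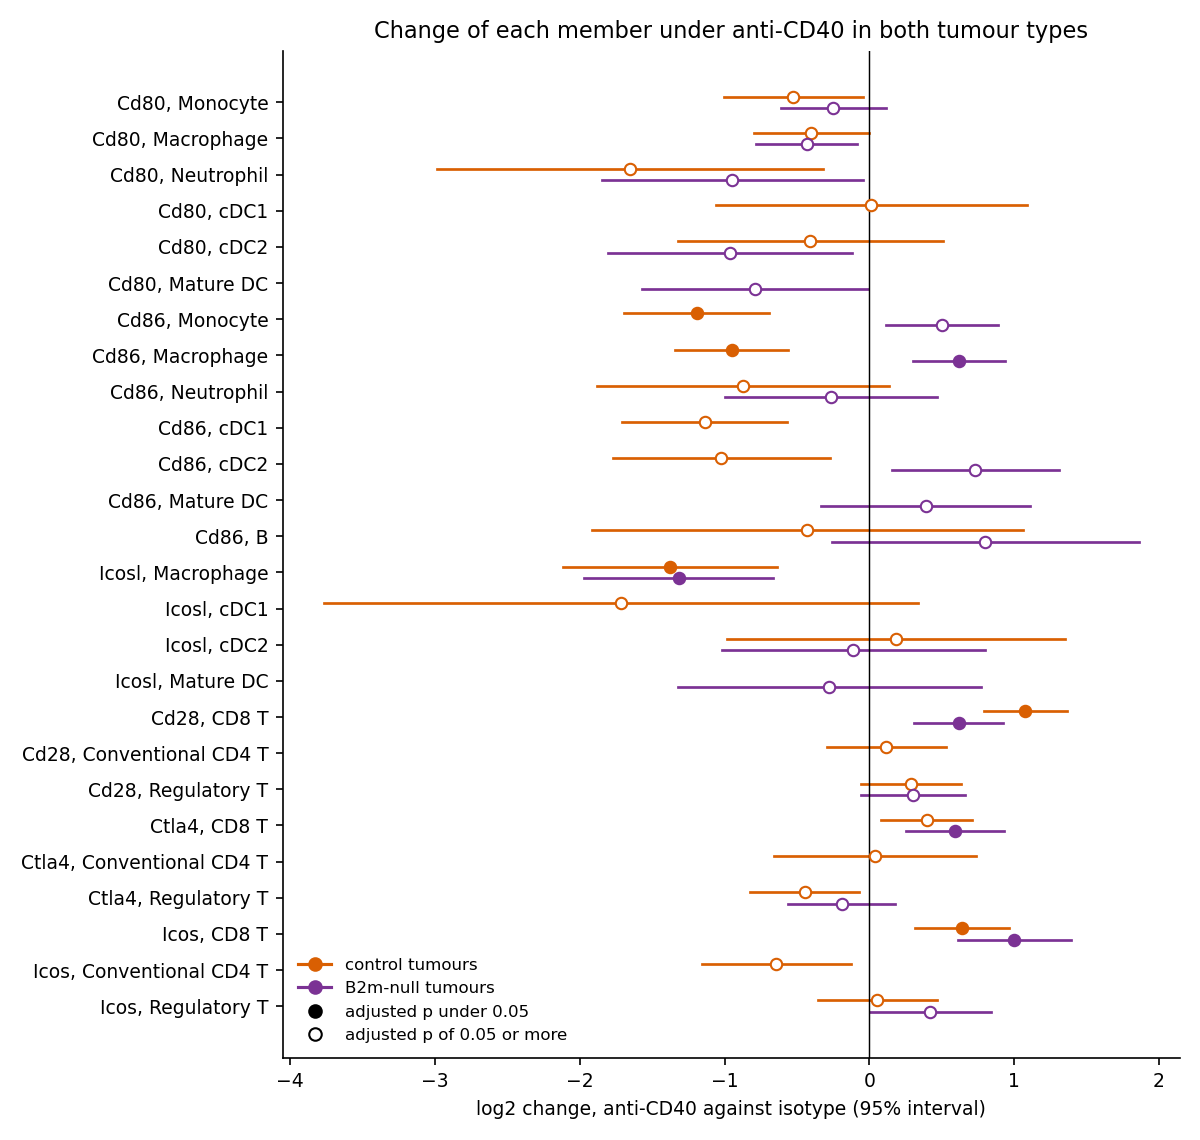
Log2 change of each gene under anti-CD40 against isotype in each class, orange for control and purple for B2m-null tumours, with bars for the 95% interval and filled points for an adjusted p under 0.05. The Cd86 points lie on opposite sides of 0 in the 2 tumour types in monocytes (−1.19 and 0.50), macrophages (−0.95 and 0.62) and cDC2 (−1.02 and 0.73), while Icosl in macrophages and the receptors in CD8 T cells lie on the same side.

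Among the receptors, Cd28, which delivers the costimulatory signal, rose in CD8 T cells under anti-CD40 in both tumour types. In control tumours the isotype mice gave 285, 361 and 279 CPM in the first pool and 372 and 402 CPM in the second. The anti-CD40 mice gave 669 and 742 CPM. In B2m-null tumours the isotype mice gave 464 CPM in the first pool and 375 and 381 CPM in the second. The anti-CD40 mice there gave 563 and 465.7 CPM in the first pool and 603 and 545 CPM in the second. The anti-CD40 mice stood above the isotype mice in both tumour types, by a wide gap in control tumours and by a narrow one in B2m-null tumours. The rise was 2.11-fold in control tumours (1.08, SE 0.15, adjusted p = 1.85e-05) and 1.53-fold in B2m-null tumours (0.62, SE 0.16, adjusted p = 0.0208). The 2 effects differed by −0.46 (95% interval −0.88 to −0.04, adjusted p = 0.208), which did not pass. The call in control tumours held in all 22 alternatives (0.80 to 1.21), and that in B2m-null tumours was lost in 5 of 20.

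Ctla4, the inhibitory receptor, passed in B2m-null tumours, and Icos, the inducible one, in both tumour types. For Ctla4 in CD8 T cells, control isotype mice gave 319, 308, 268, 348 and 254 CPM, and control anti-CD40 mice 348 and 429 CPM. B2m-null isotype mice gave 380.2, 286 and 206 CPM, and B2m-null anti-CD40 mice 377, 454, 345 and 346 CPM. In control tumours the highest isotype mouse and the lowest anti-CD40 mouse were level for Ctla4, and in B2m-null tumours the ranges overlapped. The rise passed in B2m-null tumours (0.59, SE 0.17, adjusted p = 0.0379), where it was lost in 10 of 20 alternatives, and not in control tumours (0.40, SE 0.16, adjusted p = 0.0511), where it passed in 11 of 22. For Icos, control isotype mice gave 116, 102, 76.3, 108 and 103 CPM, and control anti-CD40 mice 169 and 145 CPM. B2m-null isotype mice gave 111, 97.5 and 50.2 CPM, and B2m-null anti-CD40 mice 147, 151, 175 and 159.6 CPM. The Icos ranges did not overlap in either tumour type. Icos rose 1.56-fold in control tumours (0.64, SE 0.17, adjusted p = 0.0043) and 2.00-fold in B2m-null tumours (1.00, SE 0.20, adjusted p = 0.00441), a difference of 0.36 (95% interval −0.15 to 0.87, adjusted p = 0.443). The Icos call in control tumours was lost without the first mouse of its anti-CD40 pool (adjusted p up to 0.232 over the alternatives), and that in B2m-null tumours without the second isotype pool (up to 0.352).

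**Figure D4:**
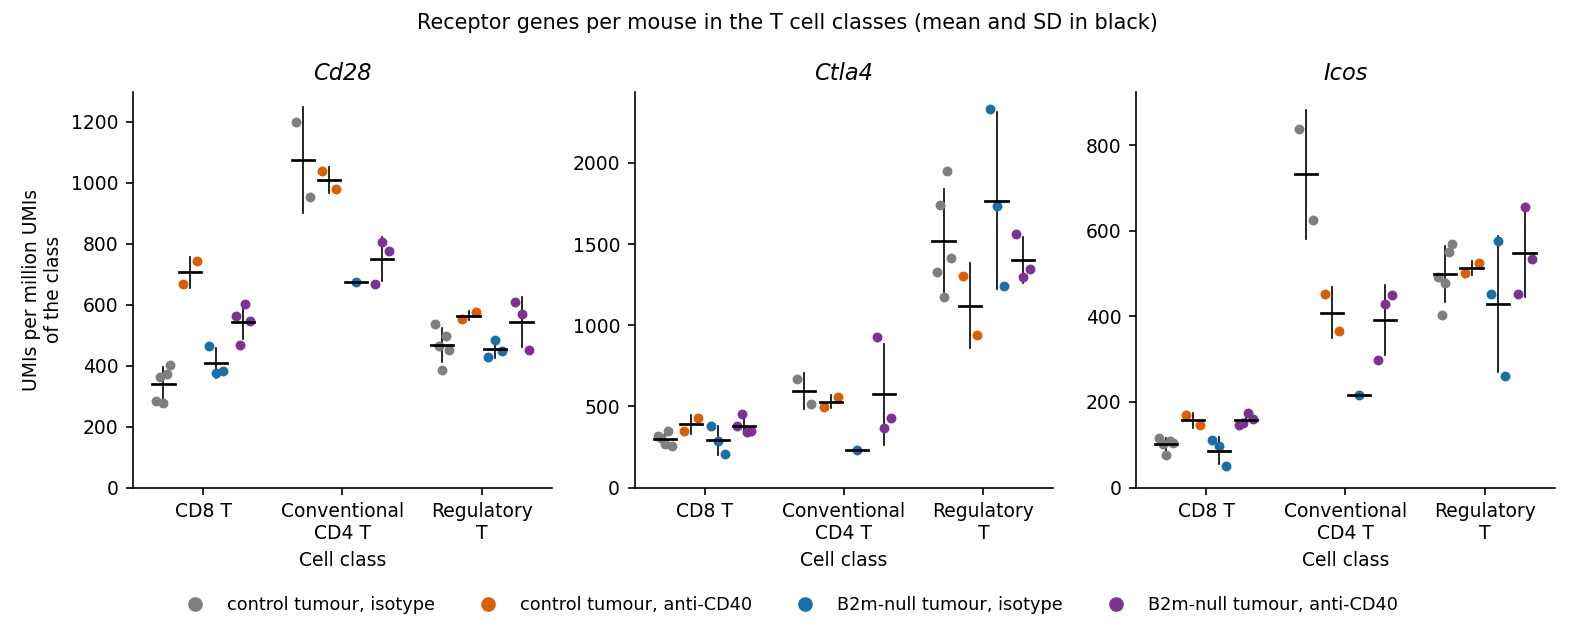
Cd28, Ctla4 and Icos per mouse in CD8 T cells, conventional CD4 T cells and regulatory T cells, in UMIs per 1000000 UMIs of the class on linear axes from 0, with the mean and SD in black. Cd28 in CD8 T cells lies at 279 to 402 CPM in control isotype mice and at 669 and 742 CPM in control anti-CD40 mice, and Ctla4 is highest in regulatory T cells.

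The CD8 T class is a set of 3 clusters whose weights differed between groups, and values within a cluster differed in size from those of the class. The Gzmk-led cluster held a mean 18.3% of a mouse's CD8 T cells in control isotype, 54.0% in control anti-CD40, 23.7% in B2m-null isotype and 58.7% in B2m-null anti-CD40 mice. The cluster led by Gzmf and Ifng held 80.1%, 20.8%, 70.1% and 37.4%. The remaining cluster, led by Ccl5 and Hcst, held 1.64%, 25.2%, 6.22% and 3.88%, and in control anti-CD40 mice Cd28 read 752 ± 2.53 CPM, Ctla4 399 ± 44.3 CPM and Icos 174 ± 40.3 CPM in it (SD, n = 2). In the Gzmf cluster Cd28 read 306, 550.3, 356 and 455 CPM over the 4 groups Icos 96.0, 150.4, 83.6 and 149.95 CPM, and Ctla4 299.9, 324, 289.6 and 348 CPM. In the Gzmk cluster Cd28 read 856 ± 91.7 CPM (n = 5) in control isotype and 876 ± 11.0 CPM (n = 2) in control anti-CD40 mice, 588 CPM in 1 B2m-null isotype mouse and 675 ± 72.5 CPM (n = 4) in B2m-null anti-CD40 mice. Within that cluster the means of the control groups lay within their spread for Cd28, and Icos read 184 ± 77.1 and 156 ± 30.2 CPM. Ctla4 in the Gzmk cluster read 322 ± 155 CPM (n = 5), 457 ± 76.5 CPM (n = 2), 351 CPM (1 mouse) and 434 ± 105 CPM (n = 4) over the 4 groups. How far the mix of clusters carries the class values was not tested. Summed regulatory T cell markers in the CD8 T class (6 of 6 with a UMI) were 701 to 959 CPM in control isotype, 394 to 573 in control anti-CD40, 608 to 1114 in B2m-null isotype and 353 to 642 in B2m-null anti-CD40 mice, the opposite direction to the 3 receptors. Natural killer markers there (6 of 6 with a UMI) were 187 to 249.8 CPM in control isotype, 196 to 256 in control anti-CD40, 241 to 454 in B2m-null isotype and 84.8 to 165 in B2m-null anti-CD40 mice, with no overlap between the B2m-null groups. Mature dendritic cell markers (7 of 7) were 34.7 to 76.9, 18.8 to 26.1, 42.9 to 55.2 and 17.0 to 50.2 CPM, with no overlap between the control groups. The part of these markers in the receptor values was not tested.

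In regulatory T cells 0 of 15 receptor tests passed with edgeR (1 at an unadjusted p under 0.05, 0 with DESeq2 or limma-voom). Ctla4, which these cells use to restrain priming, read 1327, 1739 and 1173 CPM in the first and 1950 and 1416 CPM in the second control isotype pool, and 1305 and 937 CPM in control anti-CD40 mice. It read 2330 CPM in the first and 1735 and 1239 CPM in the second B2m-null isotype pool, and 1561, 1300 and 1345 CPM in B2m-null anti-CD40 mice. The ranges overlapped in both tumour types, with log2 changes of −0.45 (95% interval −0.82 to −0.07, adjusted p = 0.106) and −0.19 (−0.56 to 0.18, adjusted p = 0.559). The Ctla4 change in control tumours passed in 6 of 21 alternatives. Cd28 changed by 0.29 (adjusted p = 0.286) and 0.30 (adjusted p = 0.303) and Icos by 0.05 (adjusted p = 0.906) and 0.42 (adjusted p = 0.207) in regulatory T cells of control and B2m-null tumours.

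Conventional CD4 T cells could be tested under anti-CD40 in control tumours alone, with 2 mice a group. Over both comparisons possible in these cells, 0 of 6 tests passed with edgeR, 1 at an unadjusted p under 0.05, 0 with DESeq2 and 2 with limma-voom. Icos averaged 732 ± 151 CPM (SD, n = 2) under isotype and 409 ± 60.2 CPM (n = 2) under anti-CD40, groups that did not overlap, with a change of −0.64 (SE 0.26, adjusted p = 0.318). Between the same mice, summed regulatory T markers in this class (5 of 5 with a UMI) went from 1005 to 1341 CPM under isotype to 647 to 719.6 CPM under anti-CD40, CD8 T markers (2 of 2) from 95.8 to 190.2 CPM to 315 to 408 CPM, and natural killer markers from 0 in both mice to 44.2 to 53.4 CPM. Their part was not tested. Cd28 read 1197 and 951 CPM against 1039 and 978 CPM (0.12, adjusted p = 0.89), and Ctla4 671 and 516 CPM against 499 and 555 CPM (0.04, adjusted p = 0.983). The median of all genes in this fit was 0.14, and with RLE size factors, where it was −0.01, Cd28 and Ctla4 changed sign to −0.04 (adjusted p = 0.973) and −0.12 (adjusted p = 0.948). The B2m-null mice read 674 CPM for Cd28, 233 CPM for Ctla4 and 216 CPM for Icos in 1 isotype mouse, and 668 to 805, 365 to 929.8 and 298 to 449 CPM in 3 anti-CD40 mice.

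Over the receptors, 2 of 9 tests passed for anti-CD40 in control tumours (Cd28 and Icos in CD8 T cells, both higher), against 42.5% of genes in CD8 T cells, 1.39% in conventional CD4 T cells and 16.9% in regulatory T cells. Higher calls alone were 20.6% in CD8 T cells. In B2m-null tumours 3 of 6 passed (all 3 receptors in CD8 T cells, higher), against 8.49% in CD8 T cells (5.55% higher) and 12.4% in regulatory T cells. For B2m-null against control tumours 0 of 6 passed under isotype (0.196% and 0.119% of genes in those classes), with 0 at an unadjusted p under 0.05 and 0 by DESeq2 or limma-voom. Under anti-CD40 0 of 9 passed (13.3%, 7.09% and 1.84% in CD8, conventional CD4 and regulatory T cells), with 0 at an unadjusted p under 0.05, 0 by DESeq2 and 1 by limma-voom. With pool number as a replicate block 3 of these 9 passed. They were Cd28 in CD8 T cells (−0.45, adjusted p = 0.0297, edgeR) and Cd28 (−0.55) and Ctla4 (0.86) in conventional CD4 T cells. The latter 2 set 1 B2m-null mouse of the first pool against the 2 control anti-CD40 mice, as no other group of this class spans both pool numbers. That mouse read 668 CPM for Cd28 and 929.8 CPM for Ctla4, against means of 1009 and 527 CPM in the control anti-CD40 mice. The 2 B2m-null mice of the second pool averaged 790 and 396 CPM. For the difference of the CD40 effects 0 of 6 passed (7.82% in CD8 and 2.06% in regulatory T cells), with 1 at an unadjusted p under 0.05 and 0 by the other tools. With 42.5% of all genes called in CD8 T cells of control tumours, nothing particular to the receptors is read from their count there.

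Of the 6 receptor steps between neighbouring T cell classes, 3 passed. Cd28 was highest in conventional CD4 T cells (886 CPM), then regulatory T cells (496) and CD8 T cells (465). The first step differed in 8 of 8 mice while the second did not (8 of 13 mice, exact permutation test, adjusted p = 0.245). Regulatory T cells read above CD8 T cells for Cd28 in 5 of 5 control isotype mice and in 0 of 2 control anti-CD40 mice. Ctla4 ran from regulatory T cells (1489 CPM) to conventional CD4 T cells (524) and CD8 T cells (333), with the first step in 8 of 8 mice and the second short of the threshold (7 of 8 mice, exact permutation test, adjusted p = 0.0904). Icos was 496 CPM in regulatory and 459 CPM in conventional CD4 T cells, which did not differ beyond their spread (6 of 8 mice, exact permutation test, adjusted p = 0.245), and 122 CPM in CD8 T cells (lower in 8 of 8 mice). Each step seen in 8 of 8 mice had an adjusted p = 0.0422 in the exact permutation test, and 6 of the 27 neighbouring pairs of all members passed. With the lane as the sample, with 50 cells or more per mouse, or without either control isotype pool or the second B2m-null isotype pool, 0 passed. These settings can leave a step fewer samples, and 8 of 8 mice already gives the smallest p that 8 mice allow (0.00781 before adjustment), so the losses say little of stability.

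Summed over all immune cells of a mouse, Cd80 and Icosl averaged lower and the 3 receptors higher under anti-CD40 in both tumour types, with no test. Cd80 averaged 32.7 CPM in control isotype, 13.7 in control anti-CD40, 30.8 in B2m-null isotype and 16.9 in B2m-null anti-CD40 mice, Cd86 109, 38.1, 65.9 and 75.3 CPM, and Icosl 7.26, 2.41, 7.65 and 3.01 CPM. Cd28 averaged 74.2, 232, 49.9 and 125 CPM, Ctla4 87.4, 135, 76.5 and 97.3 CPM, and Icos 34.6, 59.0, 19.5 and 47.0 CPM in the same order. These sums join the level per cell with the make-up of the sample, and CD8 T cells were 6.08%, 35.5%, 2.69% and 22.8% of the cells of the 4 groups, mature dendritic cells 4.11%, 0.212%, 4.89% and 0.583%. A bead-enriched sample gives no cell numbers per tumour.

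**Figure D5:**
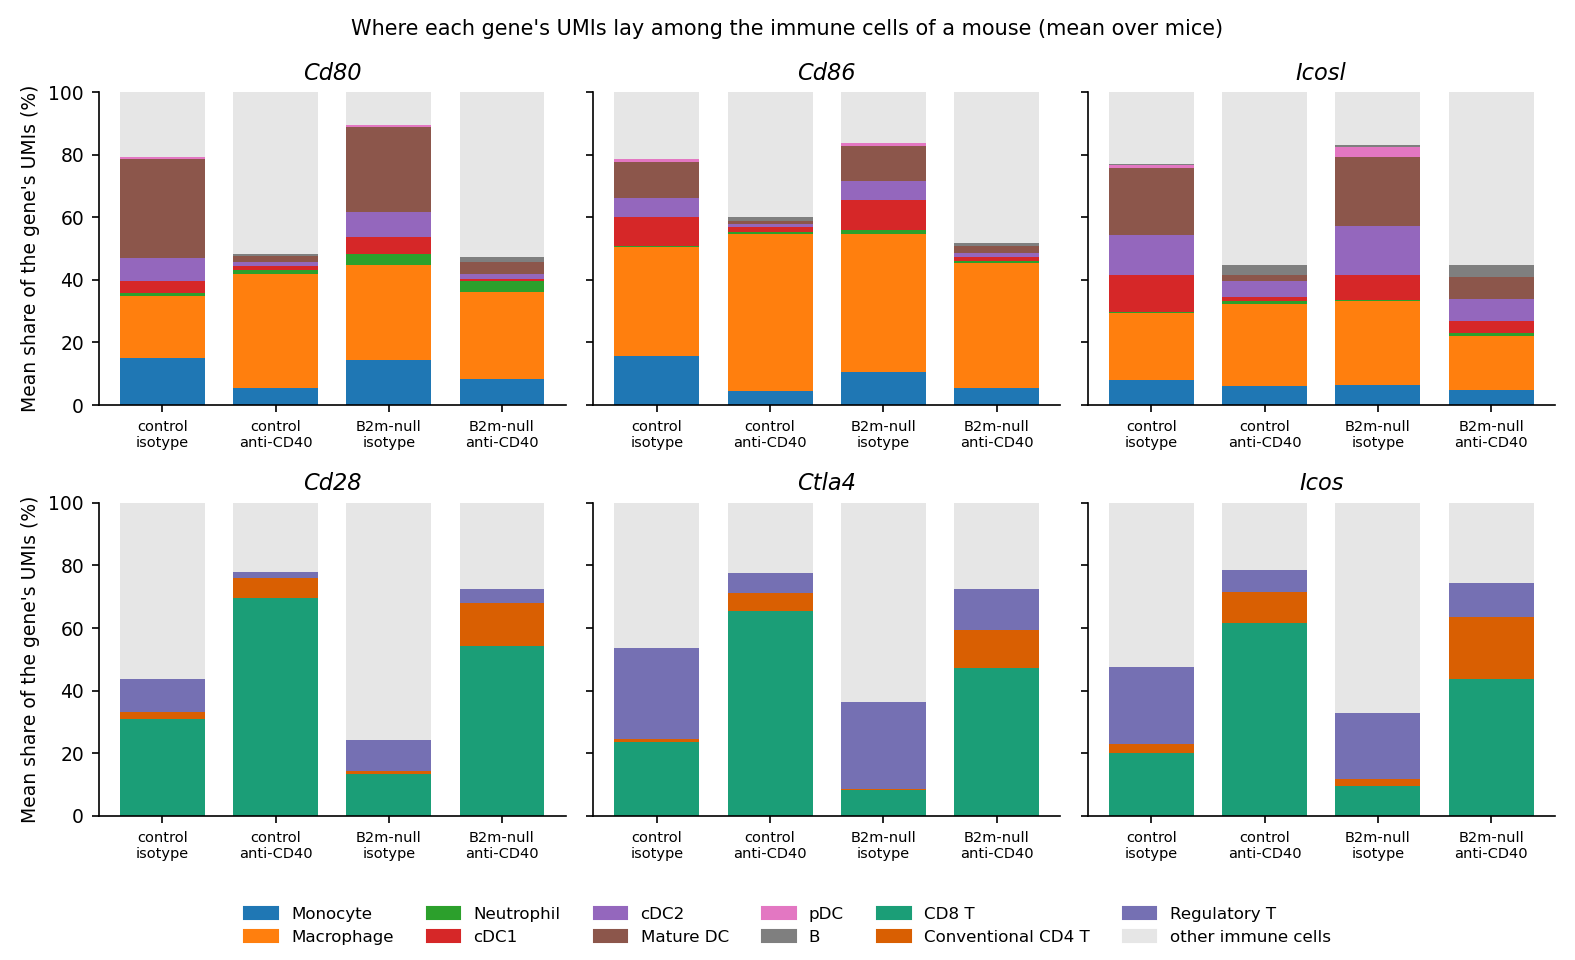
Mean share, in percent, of each gene's UMIs in the immune cells of a mouse that fell in each class, stacked by class for the 4 groups. Mature dendritic cells hold 31.6% of Cd80 UMIs in control isotype and 1.83% in control anti-CD40 mice, and CD8 T cells hold 31.1% and 69.7% of Cd28 UMIs.

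The classes that held each transcript also differed. Mature dendritic cells held 31.6% ± 6.38 (SD, n = 5 mice) of Cd80 UMIs in control isotype and 1.83% ± 2.03 (n = 2) in control anti-CD40 mice, and 27.1% ± 9.31 (n = 5) and 3.82% ± 3.61 (n = 4) in B2m-null tumours. Among the classes read, macrophages held the largest share of Cd86 in each group, at 34.8%, 50.05%, 44.1% and 39.9%. CD8 T cells held 23.6%, 65.6%, 8.22% and 47.4% of Ctla4 UMIs, while regulatory T cells held 29.2%, 6.50%, 27.8% and 13.03%. Of 132 share tests (exact permutation over mice, two-sided) 36 had an unadjusted p under 0.05 and 0 an adjusted one, with a smallest adjusted p = 0.175, and 5 mice against 2 cannot go below 0.0476 before adjustment.

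The members were also read in classes outside those tested. Cd86 read 5.73 to 12.7 CPM in natural killer cells over the group means and 14.4 to 26.1 CPM in CD8 T cells, below every macrophage mouse. Cd28 read 6.45 to 9.91 CPM in macrophages and 226 to 306 CPM in natural killer cells, and Ctla4 4.72 to 6.79 CPM in macrophages and 43.9 to 203 CPM in natural killer cells. For the receptors natural killer cells thus stood far above macrophages of the same libraries, but not alone. B cells read 75.0 to 316 CPM for Cd28 and 48.2 to 210 CPM for Ctla4, and mature dendritic cells 51.0 to 130 and 100 to 157 CPM. Cd80 read 1.02 to 7.59 CPM in natural killer cells, 6.85 to 19.4 CPM in CD8 T cells, 0 to 28.3 CPM in conventional CD4 T cells and 8.91 to 42.1 CPM in regulatory T cells. The Cd80 level of macrophages, 9.60 to 23.4 CPM over mice, thus lay within the range of T cells.

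Shares of cells with at least 1 UMI were compared after thinning each cell to 1000 UMIs, which left out 12.8%, 24.6%, 12.5% and 7.56% of cells in the 4 groups. Cd86 was seen in 9.36%, 4.36%, 6.44% and 7.51% of thinned macrophages (31.0%, 13.8%, 25.2% and 30.8% before thinning), against 0.726% of thinned natural killer cells. Cd28 was seen in 32.4%, 50.3%, 41.5% and 42.1% of thinned CD8 T cells (66.7%, 62.3%, 66.6% and 67.4% before), against 1.04% of thinned macrophages, with median UMIs per CD8 T cell of 3604, 1230, 2512 and 2169. Before thinning the Cd28 share did not follow the CPM. Thinning both lowered the depth and left out shallow cells, and their separate parts were not tested. Ctla4 was seen in 69.4% of thinned regulatory T cells. Cd80 and Cd86 were both seen in 4.18% of thinned mature dendritic cells, where the product of their separate shares is 3.29%, and Ctla4 and Icos in 29.8% of thinned regulatory T cells (product 27.5%).

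Genes with the most similar pattern were ranked by Pearson's correlation of mean log2(CPM + 1) over 47 class-by-group means of 14 classes among 11878 genes, a description in which points share libraries. For Cd86 these were Cd40 (r = 0.874), Spi1 (0.855) and Ifngr2 (0.853), for Cd80 Snx20 (0.784), Marcksl1 (0.772) and Sbno2 (0.749), and for Icosl H2-DMb2 (0.785), Map3k14 (0.745) and Ikbkb (0.720). For Cd28 they included Gimap4 (0.955) and Trbc1 (0.950), for Ctla4 Cd3d (0.941), Lat (0.939) and Icos (0.938), and for Icos Ubash3a (0.942), Cd247 (0.941) and Cd6 (0.941).

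Other genes of the pathway were read from 3 lists. Of 18 genes of the CD40 and NF-κB route in macrophages, 0 passed with edgeR under anti-CD40 in control tumours (5 at an unadjusted p under 0.05, median log2 change −0.04), where 21.8% of all genes passed. In B2m-null tumours 8 rose and 1 fell (median 0.38, against −0.01 over all genes), beside 28.2% of all genes called. Those that rose included Cd40 itself (1.06, SE 0.17, adjusted p = 0.000287), Traf1, an adaptor of CD40 signalling (1.10), Birc3 (0.77) and Relb, a subunit of NF-κB (0.64), while Cd83, a maturation marker, fell by 0.44. Under isotype 5 of the 18 were lower in B2m-null tumours and none higher (median −0.24, against 0.01 over all genes, of which 7.06% passed), among them Cd40 (−0.85), Traf1 (−0.88) and Nfkbie (−0.79). Cd40 was also lower in monocytes of B2m-null tumours under isotype (−0.95, adjusted p = 0.00137) and higher there under anti-CD40 against isotype (0.67, adjusted p = 0.0257).

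Of 24 genes of CD28 signalling in CD8 T cells, 11 rose and 1 fell under anti-CD40 in control tumours (median 0.48, against −0.01 over all genes), beside 42.5% of all genes called. They included Fyn, a kinase of the receptor complex (1.56), Pik3cd, which encodes a PI3-kinase catalytic subunit (1.34), Trat1 (1.23) and Grap2 (1.04), and Akt1 fell by 0.53. In B2m-null tumours 3 rose (among them Prkcq by 0.83 and Fyn by 0.70) and Nfkb1 fell by 0.57 (median 0.19, against 0.03 over all genes), beside 8.49% of all genes called. In regulatory T cells, where no receptor passed, 5 of 23 rose and 0 fell in control tumours (Pik3cd 1.52, Grap2 1.19, Fyn 1.05, Pik3r1 0.69 and Lck 0.60), and 4 rose and 1 fell in B2m-null tumours (Prkcq 1.43, Grap2 1.00 and Pik3cd 0.97 among those higher, Rel −1.10). Of all genes in regulatory T cells 16.9% and 12.4% passed in these comparisons. Summed CD8 T markers in the regulatory T class (5 of 5 with a UMI) were 2071 to 2398 CPM in control isotype, 2825 to 3220.2 in control anti-CD40, 1545 to 2089.6 in B2m-null isotype and 3583 to 4472 in B2m-null anti-CD40 mice, and their part was not tested.

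Of 8 relatives of the CD28 and B7 families, Cd274, which encodes the PD-1 ligand PD-L1, rose in macrophages under anti-CD40 by 0.90 (adjusted p = 0.0219) in control and by 1.38 (adjusted p = 0.000373) in B2m-null tumours and was the 1 call among 6 tested there in each, beside 21.8% and 28.2% of all genes. Under isotype Cd274 was lower in macrophages of B2m-null tumours (−1.07, adjusted p = 0.00791). In CD8 T cells Pdcd1, which encodes PD-1, fell by 1.00 and 0.84 in control and B2m-null tumours, Vsir rose by 1.39 and 1.14, and Cd274 rose by 1.46 (adjusted p = 1.85e-05) and 0.99 (adjusted p = 0.035). Pdcd1lg2, which encodes the second PD-1 ligand, fell by 0.80 in CD8 T cells of control tumours (adjusted p = 0.00703). Of the 5 relatives tested in CD8 T cells, 2 rose and 2 fell in control tumours and 2 rose and 1 fell in B2m-null tumours, beside 42.5% and 8.49% of all genes.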

How the data were processed

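The deposited values are raw UMI counts per gene and barcode, with hashtag counts beside them, made by the authors with Cell Ranger 3.0.0 and bcl2fastq 2.20.0.422 on mm10, per the submitters' processing notes. Barcodes needed 200 or more genes and no more than 10% of counts from mitochondrial genes. Hashtag doublets were removed (2.5 SD above background), and mice were assigned at a posterior of at least 0.9. Doublets within 1 mouse were not called. Cells were clustered with leidenalg 0.10.2 (2000 variable genes without the 6 members, 40 components, 20 neighbours, resolution 1), and naming thresholds were set after the data were seen. The 2 technical lanes were summed, also where the lane was taken as the sample, so the control anti-CD40 group gave 1 sample there. Counts were summed per mouse and class (at least 20 cells) and tested with edgeR 4.0.16 (TMM, filterByExpr, all 4 groups together, Benjamini-Hochberg adjustment), treating mice of 1 pool as independent. The test was checked on simulated macrophage counts of independent mice without a pool effect, for anti-CD40 in B2m-null tumours. That check covers neither the independence of mice of 1 pool nor the comparison in control tumours. DESeq2 1.42.0 and limma 3.58.1 were alternatives. The members and lists were chosen with earlier results of these data known. Named genes of a list are those past the threshold with the largest changes. Intervals of log2 changes rest on the SE of edgeR's quasi-likelihood fit, which takes in the spread between mice. Limits from a count of 0 cover counting error only. Some genes of the lists and rankings are not reported here.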

Additional observations from a re-analysis of the deposited data

Results flagged for a closer look

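The effect of anti-CD40 on Cd86 differed between the tumour types in 3 classes. In edgeR's test of the difference, B2m-null minus control was 1.69 on the log2 scale in monocytes (adjusted p = 0.00185), from −1.19 in control and 0.50 in B2m-null tumours. In macrophages it was 1.57 (adjusted p = 0.00162), from −0.95 and 0.62. In cDC2 it was 1.75 (adjusted p = 0.0484), from −1.02 and 0.73. All 3 rest on the 2 control anti-CD40 mice of 1 pool, so pool and group cannot be told apart.

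Cd80 in cDC2 had 1 B2m-null isotype mouse far from the others, at 20.9 CPM from 1 UMI against 56.9 CPM in the nearest of 5 mice (gap over range 0.715). It was the 1 such set among 48 sets of 4 to 10 mice, and chance gives about 1 in 20.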

How the results depend on the processing

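Of 2112 results of 104 member tests under 22 alternatives, 1989 kept their direction where called and their side of the threshold, 75 lost a call, 47 gained one and 1 reversed. The 75 lost calls all came from the 18 tests called in the main fit. A test called in neither run counts among the 1989, so that number says little of the calls. Ctla4 in conventional CD4 T cells under anti-CD40 in control tumours moved from 0.04 to −1.13 with the replicate block. The control isotype mice of this class all came from the second pool, and the control anti-CD40 pool counted as a first. Block and treatment thus cannot be told apart there. The block was estimated from 1 B2m-null anti-CD40 mouse (929.8 CPM) against 2 others (mean 396 CPM), so no change is read from −1.13. Calls for anti-CD40 in control tumours were 5, with 3 when the lane was the sample, 8 with no filter on low counts, and 3 to 9 leaving out 1 replicate. In B2m-null tumours they were 5 of 20 tests, with 3 by lane, 3 by limma-voom, 1 after thinning, 2 of 7 tests at 50 cells or more and 3 of 10 under the stricter cell filter, where CD8 T cells could not be tested and the latter gained Cd80 in macrophages, and 3 to 8 leaving out 1 replicate. For tumour type under isotype they were 3, with 0 after thinning and 0 to 4 leaving out 1 replicate. Under anti-CD40 they were 2, with 1 at clustering resolution 2, 0 by lane, 4 by limma-voom, and 0 to 2 leaving out 1 replicate. With monocytes, macrophages and the left-out cluster of monocytes or macrophages joined (chosen after seeing the data) the count was 1. There the 2 Cd86 calls of monocytes and macrophages can give at most 1 by construction. For the difference of the CD40 effects they were 3, and 1 to 4 leaving out 1 replicate. The 6 passing level steps became 0 by lane, 0 at 50 cells or more, and 0 to 6 leaving out 1 replicate. This says little of stability, since the steps of 8 mice stood at the smallest p that 8 mice allow (0.00781 before adjustment, exact permutation test). Fewer mice or lanes raise that smallest p. Passing shares were 0 of 132 in each run, which says nothing of stability, since 5 against 2 mice cannot go below p = 0.0476 (exact permutation test) before adjustment, nor 2 against 4 below 0.0667.

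Deviations of same-numbered pools correlated between −0.01 and 0.17. Between the B2m-null groups the values were 0.165 in macrophages, 0.173 in monocytes, 0.0902 in CD8 T cells and 0.0909 in natural killer cells. Whether pools of 1 number shared a batch was not tested. With the replicate block the calls were 6, 5, 3, 4 and 2 for the 5 comparisons in the order above. For tumour type under anti-CD40 the 4 included 3 receptor calls not made without the block, of which those in conventional CD4 T cells rest on 1 B2m-null mouse. Cd86 in monocytes lost its call (0.78, adjusted p = 0.112, edgeR). Low UMI numbers limit Icosl and the B cell values.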
